A study of Mus musculus with 5 samples.

Results

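The embryonic gut and its accessory organs are wrapped in splanchnic mesenchyme, and 9 transcription factors that give this mesenchyme its regional identity were followed here in the neonatal pancreas. They were Barx1, Nkx3-2, Tlx1, Nkx2-5, Nkx2-3, Tcf21, Foxf1, Isl2 and Six2, chosen by name and matched through the gene symbols of the array's annotation. All 9 were found, on 10 of the 28853 probe sets, among 19938 genes in all; Foxf1 had 2 probe sets and each of the others 1. As background, Barx1 marks the mesenchyme of the stomach, Tlx1 that of the spleen, Nkx2-5 the spleen and the pyloric sphincter, and Nkx3-2 the mesenchyme that lies between spleen and pancreas, while Foxf1 is found along the whole gut downstream of hedgehog signals from the epithelium. The dorsal pancreatic bud and the spleen grow in a common mesenchyme, next to the stomach, so these factors report on what surrounds the pancreatic epithelium as well as on what lies within it.

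RNA came from whole pancreata of mice at postnatal day 1, hybridised singly to 5 Mouse Gene 1.0 ST arrays (Affymetrix). The 2 control mice are labelled as not recombined, and the sources used here do not say whether they carried the Pdx1loxP allele or Elastase-Cre. The 3 Pdx1cKO mice came from the cross of Pdx1loxP with Elastase-Cre mice, in which the Elastase promoter drives Cre in exocrine cells, so that neither mesenchyme nor endocrine cells are the target of the deletion. The series title places both groups in the same litter. The question was whether the regional factors of the mesenchyme differed in pancreata whose exocrine cells had lost Pdx1.

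Markers of the labelled tissue were present, with the glucagon gene Gcg at 1104 or more on every array. Pdx1 itself read 67.9 and 112.7 in control mice against 48.4, 48.4 and 42.9 in Pdx1cKO mice 1 to 3 (log2 fold change -0.91, standard error 0.255, limma adjusted p = 0.385). Control 2 stood apart. Its 12 stomach epithelium genes summed to an intensity of 14734, against 604 in control 1 and 835 to 882 in the Pdx1cKO mice. Gkn2, which the gastric mucosa secretes, read 3014 on that array and 25.1 to 26.4 on the rest. Its 7 intestinal epithelium genes summed to 2953, against 545 in control 1 and 296 to 381 in the Pdx1cKO mice. Of these, Krt20 read 276 and 665 in control mice against 33.1 to 54.6 in Pdx1cKO mice (log2 fold change -3.275, limma adjusted p = 0.236). All 8 measured acinar genes were lower in the Pdx1cKO mice than in both controls, and 8 of the 9 measured liver genes and 9 of 9 granulocyte genes were higher. Xist was above the Y-linked Eif2s3y in Pdx1cKO mice 1 and 2 and below it in both controls and Pdx1cKO mouse 3, so sex was not balanced between the groups.

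No factor passed limma's test adjusted over all genes, with 0 of 9 past an adjusted p of 0.05, against 0% of all genes. The acinar genes Ctrl and Cela1, at log2 fold changes of -5.60 and -4.62, did not pass either (limma adjusted p = 0.204 and 0.183). This result thus does not show that a factor was unchanged. At an unadjusted limma p under 0.05 Barx1 alone was lower, 1 of 9 against 5.04% of all genes, and 0 of 9 were higher against 5.29%. The Pdx1cKO values lay wholly below the controls for 3 factors, Barx1, Nkx2-5 and Six2, where 11.7% of all genes did so, and wholly above them for 2, Tlx1 and Tcf21, where 12% did so. The median log2 fold change of the 9 factors was 0.04, and that of all genes was -0.00117. In whole tissue, fewer cells of a type and less RNA per cell cannot be told apart, and this holds for every value given here.

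**Figure D1:**
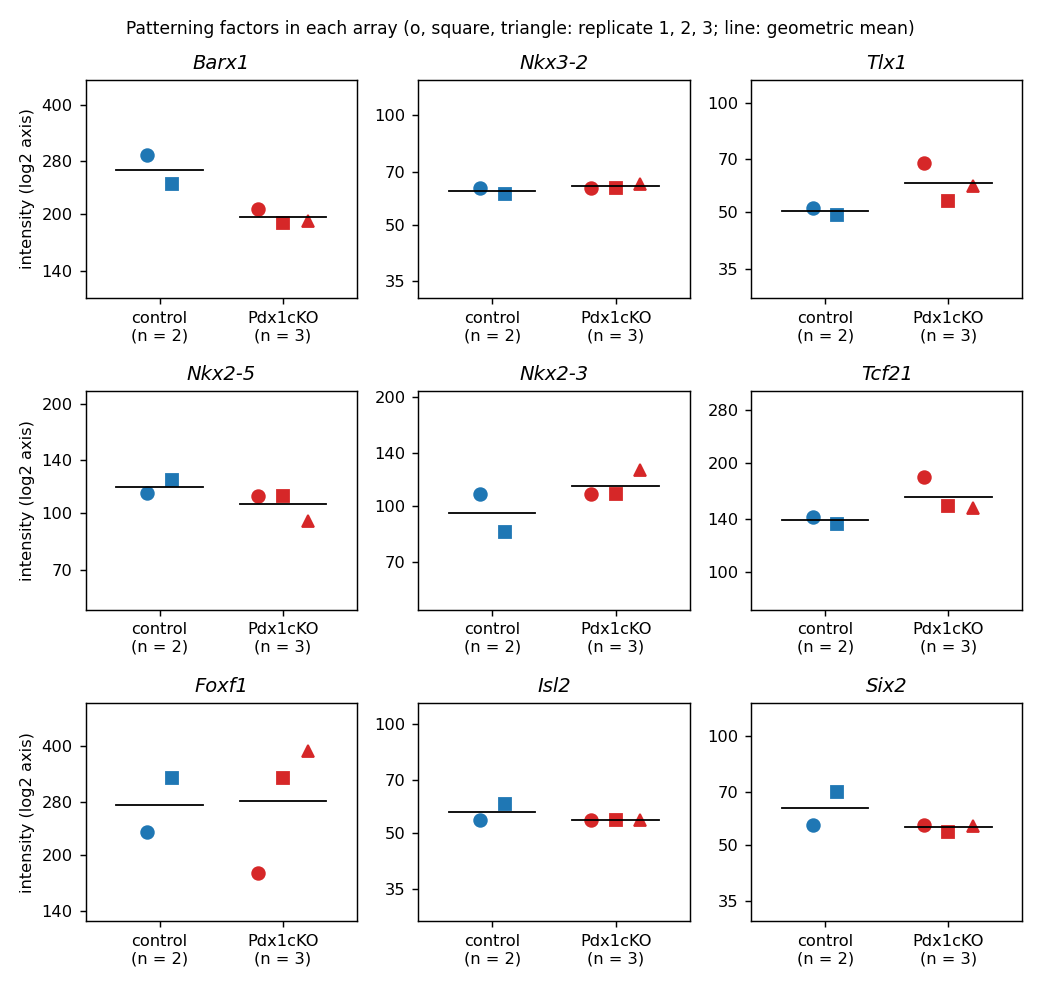
Intensity of each of the 9 factors on a log2 axis, by group, with every panel spanning the same 4-fold range (blue, control, n = 2; red, Pdx1cKO, n = 3; circle, square and triangle mark replicates 1, 2 and 3; lines are geometric means). The groups separate for Barx1, from 190 to 207 in Pdx1cKO against 242 and 291 in the controls, and Foxf1 spreads from 178 to 387 across both groups.

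Barx1, a homeobox factor of the stomach mesenchyme that favours gastric over intestinal fate in the overlying epithelium, showed the clearest separation of the groups. Control mice 1 and 2 had intensities of 291 and 242, and Pdx1cKO mice 1, 2 and 3 had 207, 190 and 192. The 3 Pdx1cKO values lay within a narrow band below both controls. The geometric mean was 265 in the controls and 196 in the Pdx1cKO mice, 1.35-fold lower, a log2 fold change of -0.44 with a standard error of 0.10 and a 95% confidence interval of -0.72 to -0.15 (limma adjusted p = 0.319). Its unadjusted limma p was 0.0146. The exact two-sided permutation p of Barx1 was 0.1, as it was for Six2, the smallest that 2 mice against 3 allow. Leaving out control 1 moved the log2 fold change to -0.30 (limma adjusted p = 0.128), and leaving out control 2 moved it to -0.57 (limma adjusted p = 0.0517).

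Stomach epithelial transcripts and Barx1 were highest on different arrays. Tff1, a gastric trefoil peptide, read 4029 in control 2 and 54.6 in control 1, while Barx1 read 242 in control 2 and 291 in control 1. The part of stomach tissue in the Barx1 values was not tested. The general markers of mesenchyme were also lowest in control 2, in 10 of 10 genes where 25.9% of all genes were lowest, among them Pdgfra at 219 against 366 in control 1 and Col3a1 at 1457 against 2422. The same 10 markers had a positive log2 fold change in 10 of 10 genes, with a median of 0.28, although 0 of 10 passed over all genes and 5 of 10 overlapped the controls. Relative to the median of these markers, the difference of Barx1 between Pdx1cKO and control was -0.73 on the log2 scale. On that relative scale control 2 was the highest array for Barx1, at 0.09 above the mean of the controls. Every other factor was negative on it too, from -0.47 for Six2 and -0.46 for Nkx2-5 to -0.04 for Tlx1. Between the groups this scale lowers every factor by the same amount, so a factor with no change would also be negative. Sfrp1 and Sfrp2, secreted Wnt inhibitors known to act below Barx1 in the stomach and named here after their values were seen, did not follow it. Sfrp1 read 392 and 271 in control mice against 422 to 569 in Pdx1cKO mice, and Sfrp2 read 596 and 300 against 613 to 683 (limma adjusted p = 0.515 for each), with control 2 lowest for both.

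**Figure D2:**
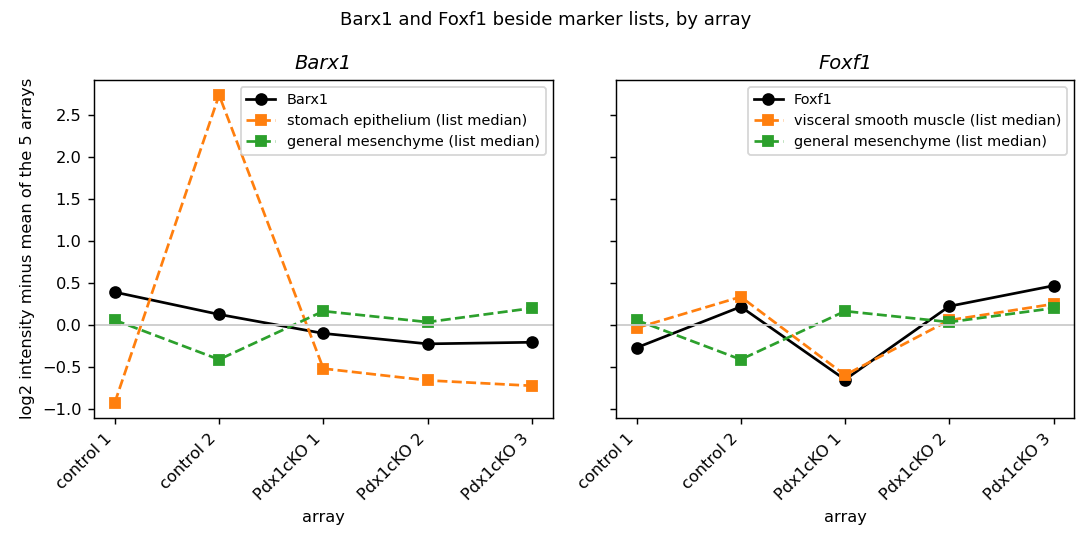
Log2 intensity minus the mean of the 5 arrays for Barx1 (left) and Foxf1 (right), beside the median of the same quantity over marker lists, for each array. The stomach epithelium list stands 2.74 above the mean in control 2, and Barx1 is highest in control 1. Foxf1 and the smooth muscle list are both lowest in Pdx1cKO 1, where the list is at -0.59, but the list is highest in control 2 (0.34) and Foxf1 in Pdx1cKO 3.

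The promoters of these factors ranged widely in CpG content. RefSeq promoter sequences (GRCm38.p6) were found for 8 of the 9, and in the 250 bases before the annotated start they held a median of 15.5 CpG dinucleotides with a GC content of 63.4%, against 6 CpG and 52.4% over 32851 promoters. Nkx2-5, with 8 CpG and a GC content of 49.2%, and Tcf21, with 5 CpG and 52.4%, did not exceed that GC content. The highest and the lowest in CpG are shown, to give that range, with each CG in capitals. Barx1 (chr13:48662786-48663035, plus strand) held 40 CpG, a number that 1.31% of promoters reach. Tcf21 (chr10:22820144-22820393, minus strand, read on that strand) held 5, which 55.6% of promoters reach. These letters describe the windows and say nothing of which factors bind there.
Barx1: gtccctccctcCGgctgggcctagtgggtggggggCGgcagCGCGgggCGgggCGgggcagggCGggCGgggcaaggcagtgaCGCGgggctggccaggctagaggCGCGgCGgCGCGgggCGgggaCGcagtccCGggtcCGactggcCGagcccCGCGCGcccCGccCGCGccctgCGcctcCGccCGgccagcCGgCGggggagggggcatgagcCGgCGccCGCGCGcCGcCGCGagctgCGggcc
Tcf21: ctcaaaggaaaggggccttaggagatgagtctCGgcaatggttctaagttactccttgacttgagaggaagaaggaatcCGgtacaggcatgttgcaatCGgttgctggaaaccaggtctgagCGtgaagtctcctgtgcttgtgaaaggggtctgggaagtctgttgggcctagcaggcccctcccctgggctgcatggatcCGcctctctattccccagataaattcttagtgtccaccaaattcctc

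Of the factors tied to the spleen, none passed the test, and they did not share a direction. Tlx1, without which no spleen forms, read 51.5 and 49.3 in control mice against 68.2, 53.8 and 59.3 in Pdx1cKO mice. All 3 Pdx1cKO values were above both controls, though that of Pdx1cKO mouse 2 was close to control 1. The log2 fold change was 0.26 (standard error 0.118, 95% confidence interval -0.08 to 0.59, limma adjusted p = 0.515), and 0.16 without Pdx1cKO mouse 1.
Nkx2-5, also a cardiac factor, pointed the other way, with 113.5 and 123.7 in control mice against 111.7, 111.7 and 95.1 in Pdx1cKO mice. The groups did not overlap, but control 1 was only just above the shared value of Pdx1cKO mice 1 and 2, and the log2 fold change was -0.16 (95% confidence interval -0.45 to 0.12). Nkx3-2, required for spleen and pancreas to part, was nearly flat, with 63.3 and 60.8 in control mice against 63.3, 63.3 and 64.6 in Pdx1cKO mice. Its confidence interval was the narrowest of the 9, from -0.03 to 0.11.
Nkx2-3, a factor of gut mesenchyme and splenic vessels, read 108.0 in control 1 and 84.9 in control 2, against 108.0, 108.0 and 125.9 in Pdx1cKO mice. Control 1 and Pdx1cKO mice 1 and 2 thus held the same value, and the log2 fold change of 0.25 (95% confidence interval -0.17 to 0.66) rested on control 2 and Pdx1cKO mouse 3. Madcam1, an adhesion molecule known to depend on Nkx2-3 in the spleen and named after its values were seen, read 57.4 and 64.2 in control mice against 64.2 to 75.0 in Pdx1cKO mice.

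Other transcripts of the spleen did not pass the test either. Of 8 measured genes of spleen stroma and lymphocytes, 6 lay wholly above the controls, against 12% of all genes, and 5 were higher at an unadjusted limma p under 0.05, against 5.29%. Over all genes 0 of 8 passed, the median log2 fold change was 0.53, and Madcam1 and Cd3e, at 0.20 and 0.07, lay below Tlx1. Their summed intensity was 393 to 492 on the control arrays and 812 to 893 on the Pdx1cKO arrays. Ccl19, a chemokine of lymphoid stroma, read 57.5 and 46.2 in control mice against 153 to 206 in Pdx1cKO mice (log2 fold change 1.75, standard error 0.183, limma adjusted p = 0.183). Cd79b, a component of the B cell receptor, had a log2 fold change of 1.38. Spic, which marks red pulp macrophages, read 25.9 and 26.8 in control mice against 33.2 to 37.3 in Pdx1cKO mice and was thus at the dim end of the arrays. Granulocyte genes, whose median log2 fold change was 2.23, and liver genes, whose median was 2.58, were higher on the same arrays, and the part of either in the Tlx1 values was not tested.

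Tcf21, a bHLH factor of the mesenchyme of spleen, kidney and lung, read 142 and 136 in control mice against 183, 152 and 151 in Pdx1cKO mice. The groups did not overlap, with Pdx1cKO mouse 1 highest and the other two close above control 1. The log2 fold change was 0.21 (standard error 0.109, 95% confidence interval -0.10 to 0.53, limma adjusted p = 0.515), and 0.12 without Pdx1cKO mouse 1. Relative to the median of the general mesenchyme markers Tcf21 differed by -0.08 and Tlx1 by -0.04. Lum, a collagen-binding proteoglycan, and Pdgfrb, a receptor of stellate cells and pericytes, had the larger differences within those markers, at 0.64 and 0.69 (limma adjusted p = 0.271 and 0.324).

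**Figure D3:**
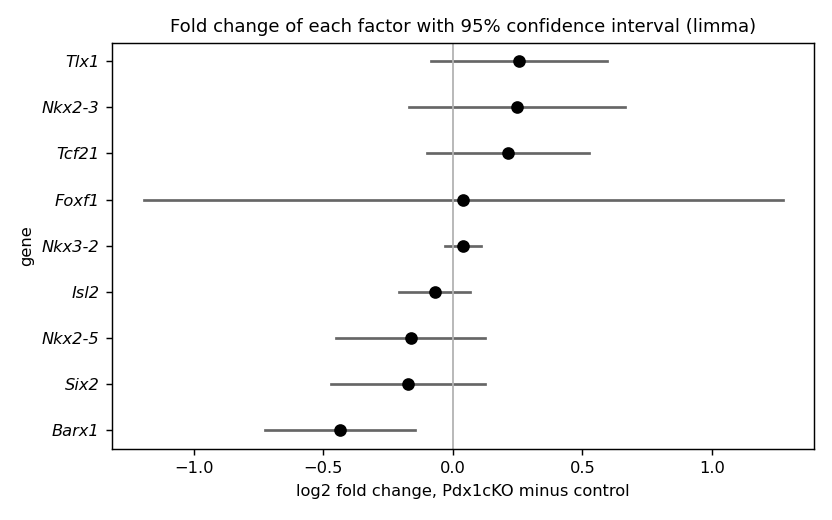
Log2 fold change of each of the 9 factors, Pdx1cKO minus control as a point on a line that spans limma's 95% confidence interval. The interval of Barx1, from -0.72 to -0.15, is the one that lies wholly on 1 side of 0, and that of Foxf1, from -1.19 to 1.27, is the widest.

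Foxf1, a forkhead factor needed for the growth of gut mesenchyme and its smooth muscle, varied most, but within the groups rather than between them. Its intensity, averaged over both probe sets, was 232 and 325 in control mice against 178, 327 and 387 in Pdx1cKO mice. Pdx1cKO mouse 1 was lowest and Pdx1cKO mouse 3 highest of the 5, so the controls lay inside the range of the mutants. The span was 2.17-fold, over 1 on the log2 scale, which 6.67% of all genes exceeded and no other factor did. The log2 fold change was 0.04 with a standard error of 0.428 (limma adjusted p = 1.000), and its 95% confidence interval of -1.19 to 1.27 leaves room for a change of more than 2-fold either way.

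Both Foxf1 probe sets gave Pdx1cKO mouse 1 as the lowest array and mouse 3 as the highest. Probe set 10576046 had 276 and 389 in control mice against 226, 385 and 432 in Pdx1cKO mice. Probe set 10576049 had 195 and 272, and then 140, 277 and 347. The genes nearest in pattern, by the root mean square distance between log2 values centred on each gene's mean over the 5 arrays, were Htr3a at 0.111, Tagln at 0.137 and Popdc2 at 0.148. Htr3a encodes a serotonin-gated channel subunit, Tagln a smooth muscle actin-binding protein and Popdc2 a membrane protein of striated and smooth muscle.

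**Figure D4:**
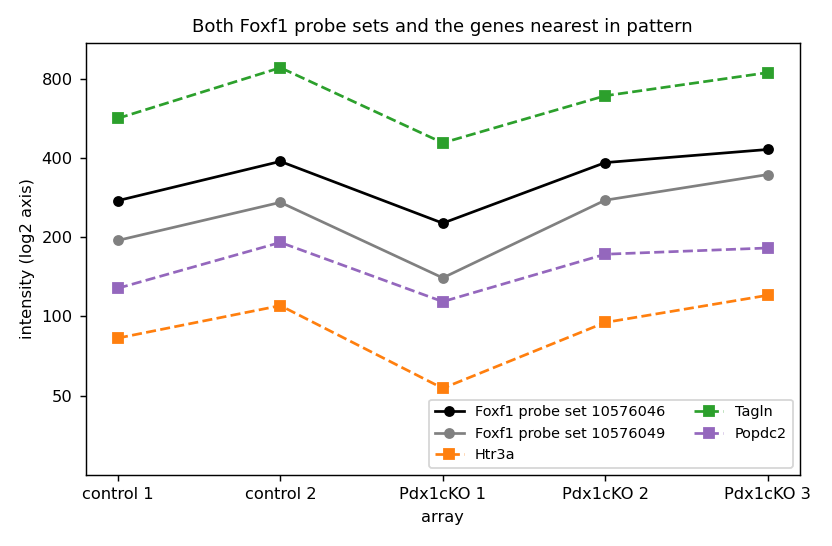
Intensity on a log2 axis of the 2 Foxf1 probe sets (solid) and of the genes nearest to Foxf1 in pattern, Htr3a, Tagln and Popdc2 (dashed), across the 5 arrays. All 5 lines are lowest in Pdx1cKO 1, where the Foxf1 probe sets read 226 and 140 and Htr3a 53.3.

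Smooth muscle genes were low on the same array. Of 9 measured, 8 were lowest in Pdx1cKO mouse 1, as 16.1% of all genes were, 6 were highest in control 2, where Foxf1 was not, and 0 of the 9 had an unadjusted limma p under 0.05 between the groups. Their summed intensity was 7610 and 12020 on the control arrays against 5916, 9225 and 10517 for Pdx1cKO mice 1, 2 and 3. Myh11, the smooth muscle myosin heavy chain, read 969 and 1248 in control mice against 385, 953 and 1127 in Pdx1cKO mice. Actg2, the enteric actin, read 1839 and 2971, and then 966, 1852 and 1896, and Myocd, a coactivator of smooth muscle genes, read 127 and 152, and then 73.7, 126 and 142. Collagen genes did not have this pattern, since Col3a1 was lowest in control 2. The part of smooth muscle in the Foxf1 values was not tested.

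Isl2 and Six2 stayed dim and nearly level except in control 2. Isl2, a LIM homeobox factor best known from motor neurons, read 54.4 in control 1 and in all 3 Pdx1cKO mice, and 60.0 in control 2. A value shared by all 3 Pdx1cKO mice occurred in 15.7% of all genes. Six2, a factor of the pyloric sphincter and of nephron progenitors, read 56.93 and 69.99 in control mice against 56.92, 54.34 and 56.65 in Pdx1cKO mice. Control 1 was thus level with Pdx1cKO mouse 1, and the log2 fold change of -0.17 (95% confidence interval -0.47 to 0.12, limma adjusted p = 0.515) came from control 2. Kidney markers gave no match to control 2, as 1 of 8 was highest there. Umod, made in the kidney tubule, read 81.9 in control 1 and 31.5 to 36.2 elsewhere. Of the stomach epithelium genes 11 of 12 were highest in control 2, and of the intestinal epithelium genes 6 of 7, against 22.1% of all genes. The part of stomach or intestinal tissue in the Isl2 and Six2 values was not tested.
Without control 1, Isl2 and Six2 passed over all genes as lower, at log2 fold changes of -0.14 and -0.32 (limma adjusted p = 0.0021 and 0.046), 2 of 9 against 8.94% of all genes, with control 2 then the only control, and 0 of 9 passed as higher against 8.04%. Without control 2, 0 of 9 passed in either direction, against 10.4% of all genes lower and 4.99% higher. The spread of the Pdx1cKO values that this test used was 0 for Isl2. Over the 9 factors control 2 was highest in 3, where 22.1% of all genes were, and lowest in 4, where 25.9% were.

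Exact repeats of a value between arrays touched 4 of the 9 factors, Nkx3-2, Nkx2-5, Nkx2-3 and Isl2, and 66% of all genes. The narrow intervals of Nkx3-2 and Isl2 rest on such repeats. Brightness limited the dimmer factors as well. The mean level was above the median of all genes for 5 of 9 (Barx1, Foxf1, Tcf21, Nkx2-5 and Nkx2-3), as it was for 50% of all genes, and below it for Nkx3-2, Tlx1, Isl2 and Six2. The files give no detection calls. As a reading of the dim end, the 95th percentile of 1015 olfactory receptor genes was 36.3 to 39.6 across the arrays, and the lowest reading of any of the 9 factors was 49.3. Probe sets differ in brightness for the same amount of RNA, so this does not show which factors were expressed.

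In a wider set of transcription factors of visceral mesenchyme, 0 of 21 measured passed over all genes. At an unadjusted limma p under 0.05, 1 was lower and 4 were higher, against 5.04% and 5.29% of all genes. Wholly below the controls lay 2 and wholly above them 6, against 11.7% and 12%, and the median log2 fold change was 0.09. Twist2, a bHLH repressor of mesenchymal differentiation, read 144 and 136 in control mice against 160 to 174 in Pdx1cKO mice (log2 fold change 0.27, limma adjusted p = 0.276). Nr2f2, a nuclear receptor of foregut mesenchyme, had a log2 fold change of 0.41 (limma adjusted p = 0.414). Foxl1 is a forkhead gene of the mesenchyme directly under the gut epithelium and a neighbour of Foxf1 in the genome. It read 51.4 and 47.4 in control mice against 42.9, 41.8 and 37.1 in Pdx1cKO mice (log2 fold change -0.28, limma adjusted p = 0.413). It was thus on the lower side, as Barx1 was, but near the dim end of the arrays, where Barx1 was not.

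Signals that pass between foregut epithelium and mesenchyme included 16 measured genes, of which 0 passed over all genes, 0 were lower and 2 were higher at an unadjusted limma p under 0.05 (5.04% and 5.29% of all genes), with a median log2 fold change of 0.21. The 2 were growth factors that mesenchyme sends to epithelium. Fgf10, which maintains pancreatic progenitors, read 100.5 and 85.6 in control mice against 147, 128 and 122 in Pdx1cKO mice (log2 fold change 0.51, limma adjusted p = 0.342). Fgf7 read 40.5 and 38.1 in control mice against 45.5 to 49.9 in Pdx1cKO mice, near the dim end of the arrays (log2 fold change 0.26, limma adjusted p = 0.324). The hedgehog ligands Shh and Ihh, named after their values were seen, were highest in control 2, at 92.3 and 158, against 53.7 to 54.1 and 65.3 to 69.5 on the other arrays. Gli1, a hedgehog target named in the same way, was not raised with them. It read 84.3 and 86.9 in control mice against 84.2 to 96.4 in Pdx1cKO mice. Hhip, of the same list, read 80.6 and 85.4 in control mice against 91.6, 99.6 and 117 in Pdx1cKO mice. Its log2 fold change was 0.30 (limma adjusted p = 0.515). Foxf1 in control 2 was nearly the same as in Pdx1cKO mouse 2.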

How the data were processed

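Total RNA of whole pancreas at postnatal day 1 was profiled on 1-colour Mouse Gene 1.0 ST arrays, 1 per mouse (control, n = 2; Pdx1cKO, n = 3), and samples were grouped by the titles in their labels. The authors deposited linear intensities from GeneSpring GX 12.1. How background, normalization and probe summary were handled is not given in the sources used here. Median intensities were close, at 61.0 to 61.9 across the arrays, and 67.7% of probe sets hold exact ties between arrays. The number of arrays limits the precision.

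Log2 was taken without a pseudocount. Probe sets of a gene were averaged, which gave 19938 genes from the 21789 that carry 1 symbol (1621 had several symbols and 5443 none here), with Python 3.11.15 and pandas 2.3.3. Groups were compared over all genes with limma 3.58.1 in R 4.3.3 (lmFit, eBayes), with Benjamini-Hochberg adjustment and a threshold of 0.05. On simulated data with 19938 genes, this step recovered 70% of genes changed by 1 on the log2 scale, 92.3% at a change of 2 and 100% at a change of 4. The real data gave 0 calls, and Ctrl and Cela1, at -5.60 and -4.62, did not pass (limma adjusted p = 0.204 and 0.183), so these rates do not give the power here. The 9 factors and the gene lists were chosen with earlier results of these data known. Genes were named by rule: the factors, the 3 smallest p values of each list, the 2 largest differences between controls in marker lists, and the 3 nearest patterns for factors spanning over 1 on the log2 scale; exceptions are marked. The olfactory receptor reading and the promoter counts were added after values were seen. No build is named with the files, so gene coordinates are given for the RefSeq promoters only. Alternatives were median scaling, quantile normalization, a filter on dim genes, probe sets singly, the brightest probe set, array weights, eBayes with trend and robust fitting, the methods' t-test, the replicate number as a block, a sex covariate and leaving out each sample.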

Additional observations from a re-analysis of the deposited data

How the results depend on the processing

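Under every alternative but one, 0 of the 9 factors passed an adjusted p of 0.05; over the left-out samples the number was 0 to 2, with 2 (Isl2 and Six2) without control 1. With both controls kept, the number at an unadjusted limma p under 0.05 was 1 except as follows. It was 0 with array weights and without Pdx1cKO mouse 3, and 2 without Pdx1cKO mouse 1. It was also higher without control 1, a fit that leaves 1 control. The 1 factor was not always Barx1. Without Pdx1cKO mouse 2 it was Tlx1, and with the sex covariate it was Nkx2-5. Genes past the threshold numbered 0 by limma with all samples (2059 unadjusted), 10 by the methods' t-test, and from 0 to 3387 when single samples were dropped. Those calls came without control 1 (3387) or control 2 (3067), when the spread is taken from the Pdx1cKO mice alone and assumed to hold for the remaining control. Barx1 was lower under all alternatives, at -0.57 to -0.30 (limma adjusted p = 0.0517 to 0.925). Foxf1 changed sign with array weights (-0.12), with the replicate block (-0.19), and over the left-out samples, from -0.20 to 0.37, being negative without control 1, Pdx1cKO mouse 2 or Pdx1cKO mouse 3. No other factor changed sign, although without control 2 Isl2 was at 0, Six2 at -0.02 and Nkx3-2 at 0.01. With the sex covariate, which sets Pdx1cKO mouse 3 alone against the controls, Nkx2-5 was at -0.32 (limma adjusted p = 0.334). Same-numbered samples did not deviate together (correlations of 0.0325 and -0.00297). The 2 controls deviate from their own mean as mirror images, so these correlations cannot decide whether the numbers pair the mice. The block left 0 genes past the threshold. The causes were not tested. The 4 factors below the median level were not tested under the filter on dim genes, and without detection calls their levels above background are unknown.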

Other observations

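Eya1, a coactivator that binds Six2 and its relatives, stood higher where Six2 did not. It read 40.3 and 52.0 in control mice against 146, 58.4 and 125 for Pdx1cKO mice 1, 2 and 3 (log2 fold change 1.16, standard error 0.493, limma adjusted p = 0.515), while Six2 stayed between 54.3 and 56.9 in those mice. The neuronal genes Stmn2 and Tubb3 were high in the same mice as Eya1. Stmn2 read 1435, 643 and 1247 and Tubb3 271, 94.1 and 236 in Pdx1cKO mice 1, 2 and 3, against 491 and 620, and 85.2 and 109, in the controls (limma adjusted p = 0.515 for each). Of the other enteric neuron genes measured, Prph read 296, 143 and 317 against 126 and 217, Elavl4 read 50.6, 56.1 and 73.5 against 59.5 and 71.6, and Ret read 139, 128 and 157 against 143 and 226. Eya1 and the neuronal genes were singled out after their values were seen. Isl2, which motor and sensory neurons use, held one value in all 3 Pdx1cKO mice.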
